A study of Homo sapiens with 8 samples.

Results

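The outermost 20 kb of the longest stretches of CENP-B coverage in control cells were examined at 48 domain ends. Coverage is the number of reads over a base, and a domain is a stretch of control coverage on chromosomes 1 to 22, joined over gaps of up to 1 kb and at least 500 kb long. Each domain has 2 ends, and each end gave 20 windows of 1 kb counted inward, called the edge. This gave 24 domains on 16 chromosomes and 960 edge windows, out of 35123 windows of 1 kb with any control coverage. The ends were chosen by control coverage values alone, and the levels of control at the edges are a description of what was chosen. Bases covered in ERCC6L2-/- alone largely fall outside this choice. Missing ERCC6L2-/- coverage could therefore show more readily than added coverage.

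CENP-B was immunoprecipitated from U2OS cells, a human osteosarcoma line, that were either wild type (here control) or ERCC6L2-/-, and neither group carried any other labelled allele or treatment. Each background had 3 immunoprecipitates and 1 input library. The ERCC6L2-/- cells were made with CRISPR/Cas9 and grown from single cells, so the difference between clones and the difference between genotypes cannot be told apart. The deposited maps hold 1 pooled value per base and group, so no value below carries a replicate error, no difference could be tested, and the depth of the libraries is unknown. The maps list only bases within peaks that passed a threshold in the merged replicates. No coverage below means that a base lies outside the listed regions, not that it had no reads, and such bases enter the means as 0.

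CENP-B is the centromere protein that recognises the CENP-B box, a short motif found in α-satellite DNA. α-Satellite is made of short repeat units that are ordered into higher-order repeats, which follow each other in near-identical copies over long arrays at human centromeres. In the reference genome GRCh38 these arrays are modelled sequences separated by assembly gaps, so the end of a domain may be the end of an assembled array, and the order of repeats within an array need not be that of a real chromosome. Because copies are so alike, reads can fit several places, and how such reads were placed is not given in the sources used here.

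The domains held 87.8% of all control-covered bases of these chromosomes and 92.8% of those covered in ERCC6L2-/- cells. Chromosomes 4, 13, 14, 20, 21 and 22 had 2 domains each and chromosome 1 had 3, lettered a, b and c by position. The other domains lay on chromosomes 2, 5, 7, 8, 9, 11, 12, 16 and 19. Their median length was 992732 bases. The longest was on chromosome 11, with 3254094 bases at chr11:51090091-54344184, and the next was on chromosome 7, with 2658362 bases at chr7:58169813-60828174.

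The sequence at the edges was α-satellite with CENP-B boxes up to the end. The box core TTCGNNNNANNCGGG, searched on both strands, was found in 954 of 960 edge windows, which is 99.4%, against 1.93% of all 1 kb windows of these chromosomes. Shown are 200 bases around the outermost box at both ends of the 2 longest domains, at the edge with the most boxes (chromosome 2, right end, 61 boxes) and at the edge with the fewest (chromosome 1 domain a, left end, 35 boxes). All are the plus strand of GRCh38, and capitals mark the box core.
chromosome 11, left end, chr11:51090118-51090317: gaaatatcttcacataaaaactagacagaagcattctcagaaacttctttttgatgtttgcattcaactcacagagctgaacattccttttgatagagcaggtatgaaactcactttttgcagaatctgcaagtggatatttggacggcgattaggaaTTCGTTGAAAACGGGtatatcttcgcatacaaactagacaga
chromosome 11, right end, chr11:54343385-54343584: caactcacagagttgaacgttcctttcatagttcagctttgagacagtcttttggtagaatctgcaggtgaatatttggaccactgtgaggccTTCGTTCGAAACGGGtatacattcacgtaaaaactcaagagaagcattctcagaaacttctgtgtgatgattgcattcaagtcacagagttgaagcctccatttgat
chromosome 7, left end, chr7:58169861-58170060: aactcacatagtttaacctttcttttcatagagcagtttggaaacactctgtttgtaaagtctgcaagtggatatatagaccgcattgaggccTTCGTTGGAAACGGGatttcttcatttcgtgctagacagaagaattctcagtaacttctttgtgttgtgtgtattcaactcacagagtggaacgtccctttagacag
chromosome 7, right end, chr7:60827760-60827959: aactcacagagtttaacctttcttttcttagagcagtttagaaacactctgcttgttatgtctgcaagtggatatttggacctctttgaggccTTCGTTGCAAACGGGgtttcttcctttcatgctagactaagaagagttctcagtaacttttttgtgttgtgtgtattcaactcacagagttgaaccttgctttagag
chromosome 2, right end, chr2:94089747-94089946: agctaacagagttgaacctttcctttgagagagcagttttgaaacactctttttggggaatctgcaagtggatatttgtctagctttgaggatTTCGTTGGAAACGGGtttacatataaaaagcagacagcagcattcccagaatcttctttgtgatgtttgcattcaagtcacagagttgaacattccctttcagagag
chromosome 1 domain a, left end, chr1:122452582-122452781: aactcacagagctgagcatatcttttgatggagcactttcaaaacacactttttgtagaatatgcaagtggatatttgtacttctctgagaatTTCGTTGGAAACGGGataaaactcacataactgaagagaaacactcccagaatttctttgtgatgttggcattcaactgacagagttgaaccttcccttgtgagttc
In control, these same 200 bases had on average 2.56 and 9.42 reads per base at the left and right ends on chromosome 11, 77.99 and 104 reads on chromosome 7, 130 reads on chromosome 2 and 35.5 reads on chromosome 1. In ERCC6L2-/- cells there was no coverage over the shown bases on chromosome 11 or chromosome 1. The other 3 stretches had 26.5 and 66.3 reads on chromosome 7 and 83.3 reads on chromosome 2, each below control. The box on the right end of chromosome 7 carries a different core from that on the left end, and both stretches had coverage in both groups. The shown boxes on chromosome 11, where ERCC6L2-/- had no coverage, also differ from the core on the left end of chromosome 7.

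Boxes were as common at the edges as in the middle of the same domains. An edge held 48.9 boxes on average (35 to 61) and the middle 20 kb of a domain 50.6 (42 to 61). The box count was higher at the edge than at the middle at 18 ends and lower at 27. Cores were compared for 2250 of the edge boxes and 1163 of the middle boxes, of which 81.2% and 81.8% had the same core, ttcgttggaaacggg. At these commonest edge boxes control averaged 156 reads and ERCC6L2-/- 55.2, and at middle boxes of the same core 94.8 and 38.6. The edges include 3 ends with very tall control signals, described below. Boxes of any core there averaged 1801, 483 and 294 control reads, on chromosomes 20, 12 and 16. A second core, ttcgttggaagcggg, made up 12.2% of the edge boxes, with 72.4 and 43.1 reads. At middle boxes of this core the means were 42.6 and 9.30 reads. ERCC6L2-/- covered 61.1% of its edge boxes and 19.6% of its middle boxes.

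Outside the ends the boxes went on. At the 23 ends that did not lie at an assembly gap, meaning no undetermined base within 1 kb outside, the neighbouring 20 kb held 44.1 boxes per 20 kb of known sequence, against 47.2 within the edge. At 22 of these 23 ends at least 10 boxes lay in the 20 kb outside. The exception was the left end on chromosome 11, which had 9. At the 25 ends at an assembly gap the known sequence outside held 40.1 boxes per 20 kb, against 50.4 inside. The first kilobase outside had no control coverage at any end, as the rule requires. Over the whole 20 kb outside, 11 of the 48 ends had some control coverage further out, in 95 of 960 windows.

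**Figure D1:**
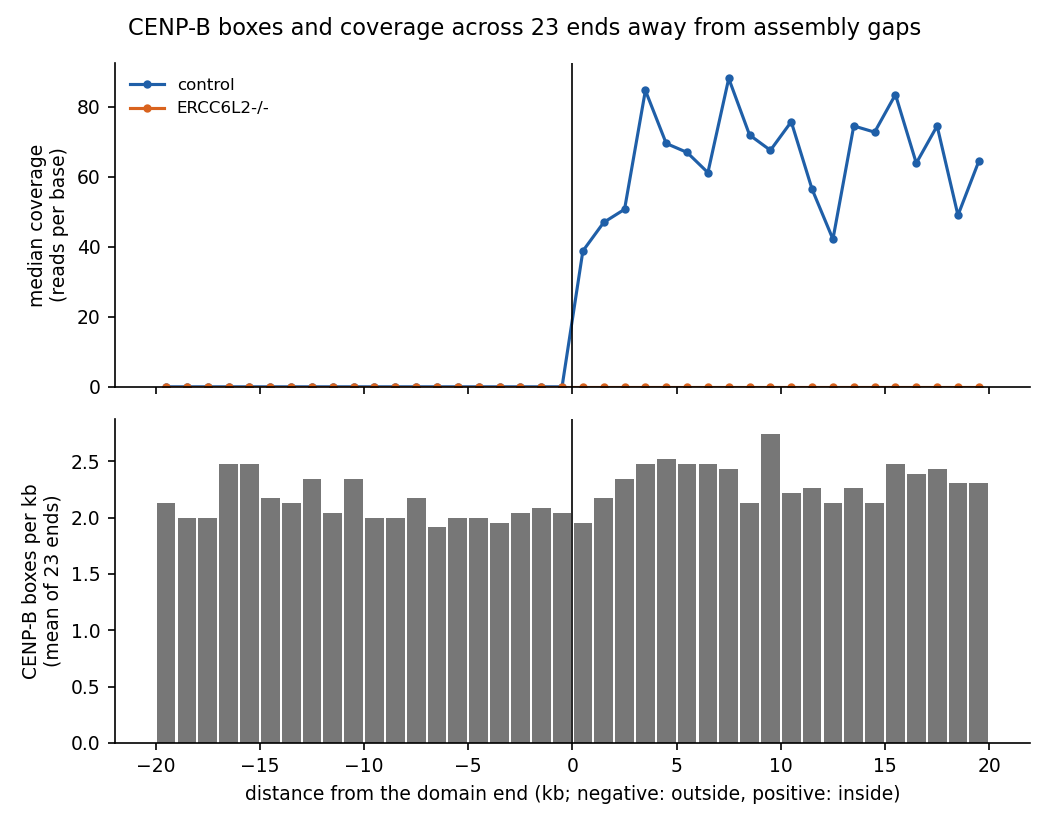
Median coverage in reads per base of control and ERCC6L2-/- (upper panel, lines) and mean number of CENP-B boxes per kb (lower panel, bars) against distance from the domain end, for the 23 ends away from assembly gaps. The mean number of boxes per kb lay between 1.91 and 2.48 outside and between 1.96 and 2.74 inside, while the median of control coverage was 0 outside and 38.8 reads in the first kilobase inside. The ERCC6L2-/- median was 0 throughout.

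Just inside the length limit of 500 kb were domain a of chromosome 21 (508927 bases) and domain b of chromosome 13 (511582 bases). Just outside it were a stretch of 492309 bases at chr5:47306287-47798595, where control averaged 78.3 reads and ERCC6L2-/- 35.7, and another of 375852 bases on chromosome 8, with 76.2 and 0 reads.

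At the very end control coverage was low. The outermost base had a median of 12 reads over the 48 ends, and 42 ends had under 20 reads there. Over the first kilobase the median of the ends was 64.6 reads, over the fourth it was 89.1 reads and over the twentieth 66.6 reads. Over the 20 windows the medians ran between 57.8 and 108 reads without a steady trend. The mean over ends took another course: it was 157 reads in the first kilobase, 307 in the second and 282 in the third, and 87.9 reads in the twentieth. This peak came from 3 ends, described below.

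ERCC6L2-/- coverage at the edges was lower than control and absent from most windows. Averaged over the 960 windows, control had 138 reads and ERCC6L2-/- 50.1 reads, a log2 ratio of −1.46. The medians were 75.9 and 0 reads. In the middle 20 kb of the 24 domains the means were 90.3 and 34.2 reads, a log2 ratio of −1.40. Whether edges or middles had the lower ratio depended on the measure: with medians over ends it was −1.82 at edges and −3.06 at middles, and with domains of at least 1 Mb it was −1.22 and −0.84. The −3.06 rests on an even split, since 12 of the 24 middles had no ERCC6L2-/- coverage. The ERCC6L2-/- median of 9.18 reads lies between the middles without coverage and those with it. Within each group the edge mean was above the middle mean, by 0.61 on the log2 scale in control and by 0.55 in ERCC6L2-/-. Without the 3 ends with the highest control levels these differences were 0.11 and 0.071. Control coverage summed over these chromosomes exceeded that of ERCC6L2-/- by 1.10 on the log2 scale, and with each group scaled to its own total the ratios were −0.36 at the edges and −0.30 at the middles.

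Most of the lower windows lay outside the regions listed for ERCC6L2-/-. Of the 960 edge windows, 510 (53.1%) had no ERCC6L2-/- coverage, against 40.3% of all windows with control coverage. A ratio of (mean + 1) under 0.5 was found in 571 edge windows (59.5%), against 44.6% of all windows, and a ratio over 2 in 0 edge windows, against 0.00285% of all windows. Both shares were above those of the whole map, of which the edges are a part. Of the 571 lower windows only 61 had any ERCC6L2-/- coverage. In 9 of the 450 windows with coverage in both groups ERCC6L2-/- was the higher, by at most 0.21 on the log2 scale of (mean + 1).

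Within the outer 100 kb, more ends had ERCC6L2-/- coverage with distance from the end, and the number did not rise steadily beyond that. In the first kilobase 16 of 48 ends were covered and the log2 ratio of means was −2.09. In the fifth 20 ends were covered, in the eighth 24, in the tenth 23 and from the thirteenth on 25. At the twentieth kilobase the ratio was −1.24. In between it did not rise steadily, with −1.18 in the eighth kilobase and −1.65 in the fourteenth. Further inward, in bins of 20 kb, 29 ends had coverage between 20 and 40 kb, with a log2 ratio of −1.27. Between 80 and 100 kb 33 ends had coverage, with a ratio of −0.96. From there to 240 kb between 29 and 36 ends had coverage and the ratios lay between −1.17 and −0.96. In the middles 12 of 24 domains (50%) had coverage, against 26 of 48 edges (54.2%). The 25 ends at assembly gaps, defined above, stayed at 15 or 16 ends with coverage out to 140 kb. In the middle 20 kb of the domains, the ratio of −1.40 was again lower than at 20 to 240 kb. At the 23 ends away from assembly gaps the bins did not order by distance either, with −1.63 in the edge, −0.88 between 80 and 100 kb and −1.54 between 180 and 200 kb.

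**Figure D2:**
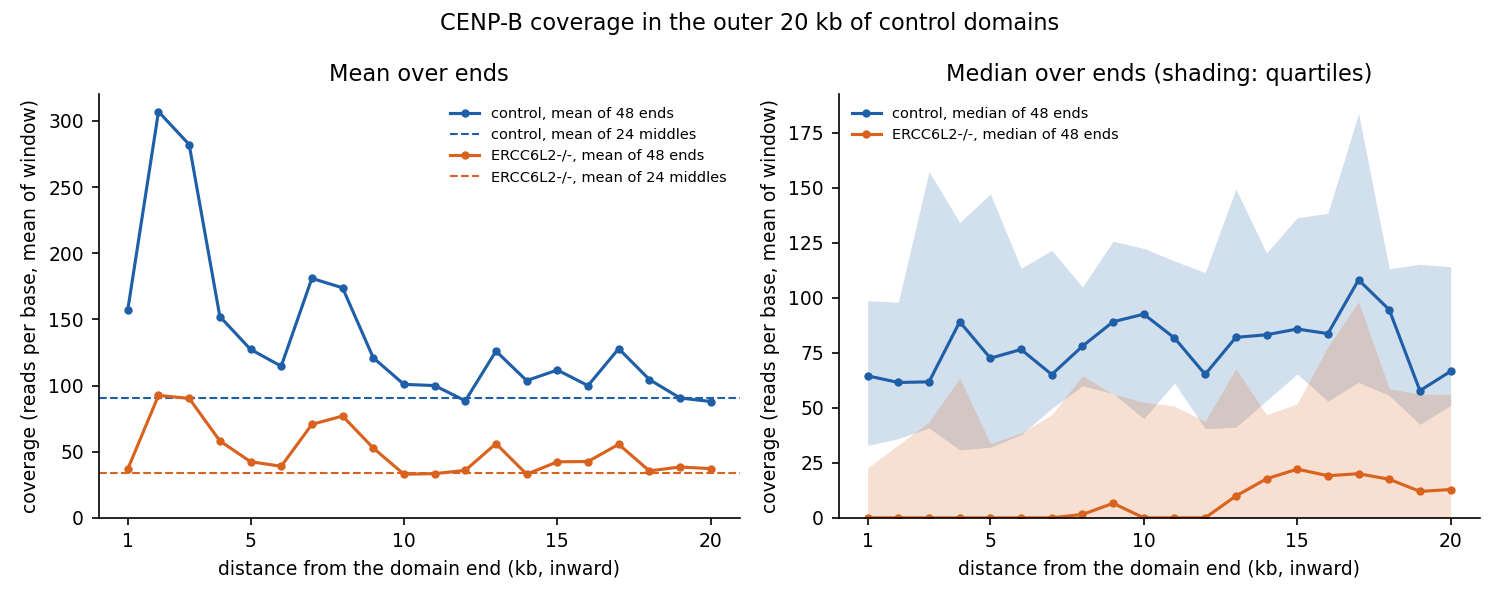
Coverage in reads per base, as the mean of 1 kb windows, against distance inward from the domain end for control and ERCC6L2-/-. The left panel gives means over 48 ends, with the means of the 24 domain middles as dashed lines (90.3 and 34.2 reads), and the right panel medians with quartiles as shading. Control means peak at 307 reads in the second kilobase while control medians there are 61.5 reads, and the ERCC6L2-/- median is 0 in the first 7 windows.

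Within control domains, ERCC6L2-/- coverage often began some way inside the end. The search ran inward only, from ends placed on control coverage, so coverage beyond an end is not counted here. The first covered base lay under 1 kb from the end at 16 ends and 1 to 20 kb inward at 10. It lay 20 to 100 kb inward at 10 and over 100 kb inward at 10. At the remaining 2 ends, those of the chromosome 9 domain, there was no ERCC6L2-/- coverage anywhere in the domain. The largest distance was 718531 bases, from the left end of domain a on chromosome 22. At its own first base ERCC6L2-/- coverage was about as low as that of control at the domain end, with a median of 8.5 reads.

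Counted by end, 22 of 48 edges (45.8%) had no ERCC6L2-/- coverage in the whole 20 kb, against 35.0% of all 20 kb windows with control coverage. They were 12 left and 10 right ends. A ratio of (mean + 1) under 0.5 over the whole edge was found at 27 ends (56.25%), against 44.1% of such windows, and a ratio over 2 at 0 ends, against 0.0535%. A further 6 edges were covered over more than 99% of their length, and 20 in part, none of these under 16.4%. Both edges were covered in 8 domains, the left alone in 4, the right alone in 6 and neither in 6. The 2 ends of a domain therefore differed in 10 of 24 domains. The middle 20 kb had no ERCC6L2-/- coverage in 12 of the 24 domains (50%). Its ratio of (mean + 1) was under 0.5 in 14 domains (58.3%), so neither share was higher at the edges than at the middles.

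**Figure D3:**
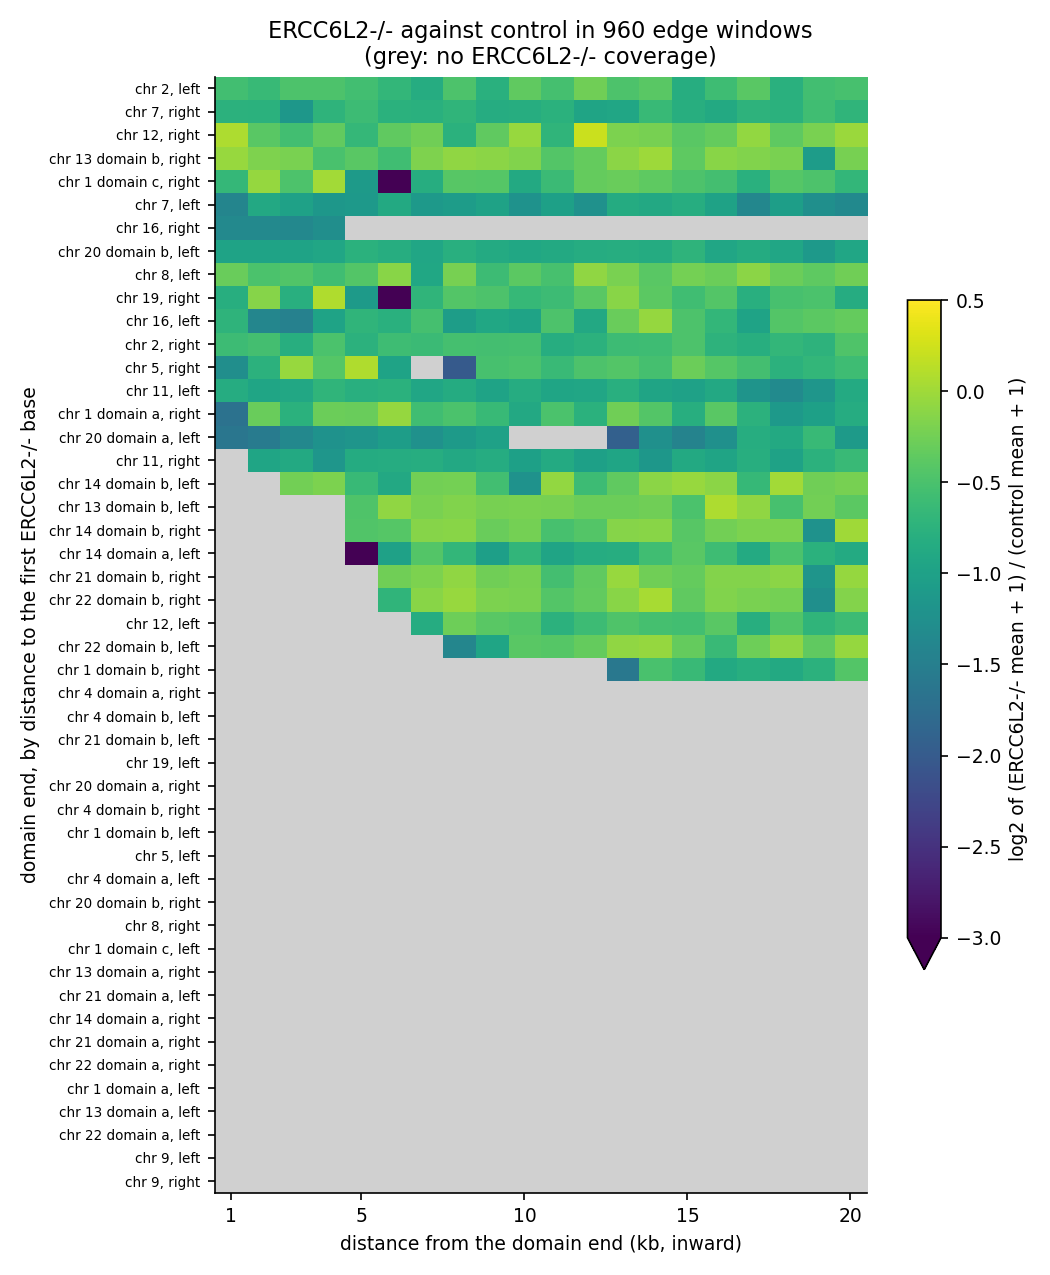
Log2 ratio of (mean + 1) of ERCC6L2-/- to control in the 960 edge windows (colour), with 1 row for each of the 48 ends and distance from the end in kb along the x axis. Grey windows have no ERCC6L2-/- coverage, 510 in all. The rows are ordered by the distance to the first ERCC6L2-/- base, and 22 rows are grey throughout. Values under −3 have the darkest colour (3 windows).

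The control level did not separate edges with and without ERCC6L2-/- coverage. Edges that lacked it had 46.8 to 171 reads in control, with a median of 74.7. Edges that had it had 44.5 to 1300 reads in control, with a median of 112. The ranges overlapped over nearly the whole of the first group. The number of boxes overlapped too, with medians of 51 boxes (35 to 54) and 49 boxes (39 to 61), as did GC content, with medians of 38.9% (37.2 to 40.95%) and 38.9% (38.2 to 40.1%).

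Where both groups had coverage, ERCC6L2-/- was the lower at each of the 26 edges. Over bases that both groups covered, the log2 ratio ranged from −1.35 to −0.20, with a median of −0.49. Pooled over all edges the ratio over such bases was −0.82, and over the middles −0.48. The 3 ends with the highest control levels weigh on the first of these values, and without them it was −0.55. The direction rests on the values as deposited. With each group scaled to its own total, ERCC6L2-/- was the higher over shared bases at 24 of the 26 edges. The pooled ratios were then 0.28 at edges and 0.62 at middles. These totals count listed bases only, and control lists many bases that ERCC6L2-/- lacks. Such scaling raises the ratio over shared bases, so the reversal cannot decide the direction.

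Edge and middle of the same domain were then set side by side. The ratio of (mean + 1) was lower at the edge than at the middle at 22 of 48 ends. Most of this count is fixed by where ERCC6L2-/- coverage is 0. At 13 ends neither the edge nor the middle had ERCC6L2-/- coverage, at 9 only the middle had it, at 11 only the edge and at 15 both. Among the 15 ends with coverage at both, the ratio was lower at the edge at 8. At the 13 ends without coverage the comparison turns on control alone. With the middle taken as everything beyond 20 kb from both ends, 27 of 48 ends were lower at the edge.

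ERCC6L2-/- coverage near the end was more frequent at ends that lay at assembly gaps. At the 25 ends at a gap, 16 edges had ERCC6L2-/- coverage and 12 had it in the first kilobase. At the 23 other ends it was 10 and 4. Windows without ERCC6L2-/- coverage made up 43.4% of the edge windows at gaps and 63.7% of the others. Control differed between these ends as well, with a median of 76.3 reads in the first kilobase at gaps and 38.8 reads at the others. The ends at gaps were not alike. At some, the kilobase outside held only 100 or 200 undetermined bases. Of these, the right end of domain c on chromosome 1 and the left end of domain b on chromosome 20 alone had ERCC6L2-/- coverage. At the other ends at gaps more of that kilobase was undetermined, and only the ends on chromosome 9 lacked coverage. The part of assembly gaps in the ratios was not tested. In the edges themselves 8 ends had undetermined bases, 1000 bases in all, and at the left end on chromosome 11 they begin right after the shown stretch.

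**Figure D4:**
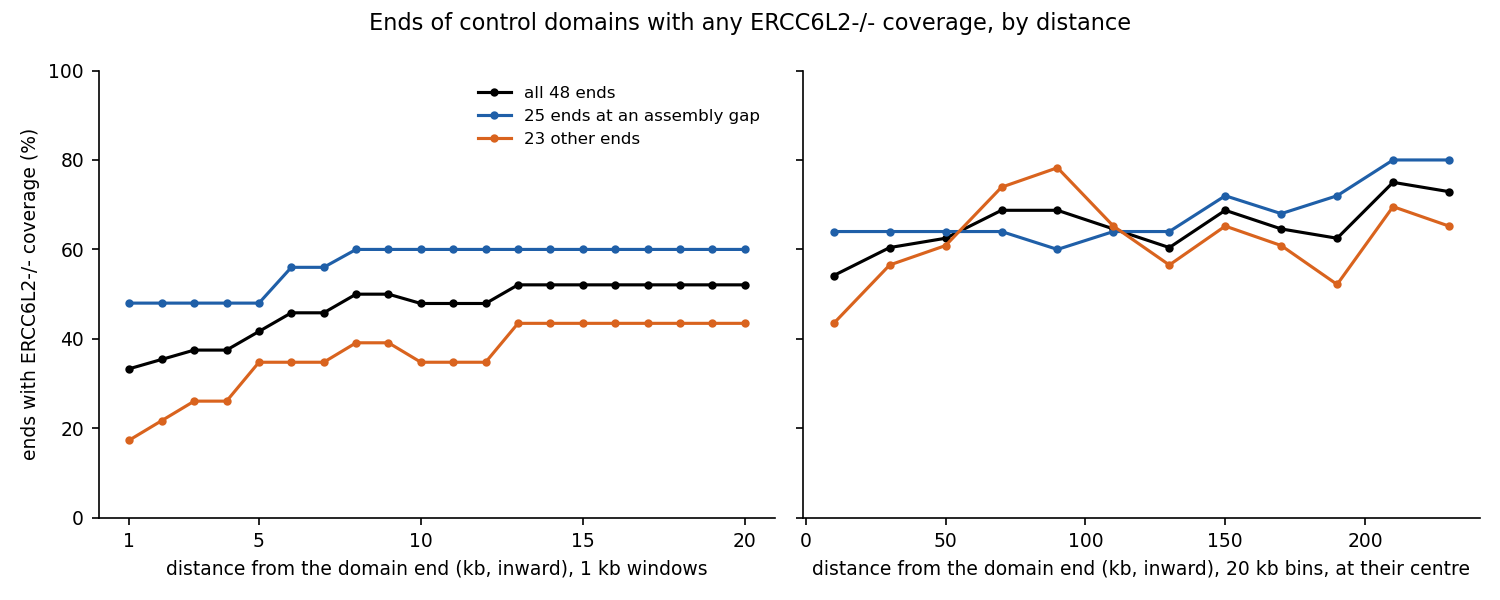
Percent of ends with any ERCC6L2-/- coverage against distance inward from the end in kb, in 1 kb windows (left) and in 20 kb bins (right), for all 48 ends, the 25 ends at an assembly gap and the 23 other ends. In the first kilobase 48% of the ends at gaps and 17.4% of the others had coverage. Between 80 and 100 kb the values were 60% and 78.3%, in the opposite order.

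The 3 ends with the highest control coverage carried very tall signals. The left end of domain a on chromosome 20 (chr20:26599439-26619438) averaged 1300 reads in control and 529 in ERCC6L2-/-. Its seventh kilobase averaged 4612 and 1961 reads, and single bases of this edge reached 29030 and 9737 reads. The right end on chromosome 16 (chr16:38249063-38269062) had 603 and 220 reads. There the outer 4 windows had 1573, 4960, 4198 and 522 reads in control and 616, 1936, 1635 and 215 reads in ERCC6L2-/-. In the remaining 16 windows control fell to between 29.6 and 115 reads and ERCC6L2-/- had no coverage. The chromosome 16 edge was thus covered in ERCC6L2-/- cells over 16.4% of its length, all of it at the tall signal.

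The left end on chromosome 12 (chr12:34829239-34849238) behaved in another way. Control averaged 343 reads there and ERCC6L2-/- 38.2. Control had 1646, 2449 and 995 reads in the first 3 windows, where ERCC6L2-/- had no coverage. ERCC6L2-/- coverage began 6293 bases inward, and over shared bases the log2 ratio was −0.56. Of the 3 tall signals, 2 were thus present in ERCC6L2-/- cells at a reduced height, and the third was not covered there. Relative to the middle of their domains, these 3 were also the ends with the highest outer 5 kb, at 48.4, 17.3 and 5.52 times the middle for chromosomes 16, 20 and 12.

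The 22 edges without ERCC6L2-/- coverage rank by their control level alone, and the lowest ratios of (mean + 1) were therefore at those with the most control coverage, the right ends of domains b and a on chromosome 20 and at the right end on chromosome 8. In control these edges had 171, 152 and 107 reads, and in ERCC6L2-/- they had no coverage, so that no fold can be given. The map began again 82685, 45381 and 148189 bases inward, respectively. On chromosome 8 the left end (chr8:44033789-44053788) was covered in ERCC6L2-/- over 99.5% of its length, with 77.6 reads in control and 62.7 in ERCC6L2-/-. This domain therefore had 1 end with almost full coverage and 1 with none.

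The highest ratios lay close to no difference. The right end of domain b on chromosome 13 (chr13:18031247-18051246) had 71.8 reads in control and 62.7 in ERCC6L2-/-, a log2 ratio of (mean + 1) of −0.19. The right end on chromosome 12 had 110 and 92.9 reads (−0.25), and the left end of domain b on chromosome 14 had 44.5 and 36.7 reads (−0.27). The last of these also had the lowest control level of all edges. Relative to the middle, the chromosome 12 and 14 ends also had among the lowest control levels in the outer 5 kb, at 0.46 and 0.44 times. The left end of domain a on chromosome 21 was the lowest, at 0.39 times. On chromosome 12 the outer 5 kb had 90.3 reads, and the middle was high, with 198 reads against 126 over the whole domain.

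Of the 22 edges without ERCC6L2-/- coverage, the first 6 by position lay on chromosomes 1 and 4. On chromosome 1 they were the left ends of domains a, b and c, with 73.6, 91.7 and 67.8 reads in control. ERCC6L2-/- coverage began 225652, 62872 and 152410 bases inward. On chromosome 4 they were both ends of domain a and the left end of domain b, with 73.2, 67.7 and 75.7 reads in control. Here coverage began 66825, 20107 and 28412 bases inward. On chromosome 1 the right ends of the same 3 domains had 77.6, 79.2 and 158 reads in control and 54.8, 22.5 and 116 in ERCC6L2-/-, so that each domain lacked coverage at its left end and had it at its right.

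**Figure D5:**
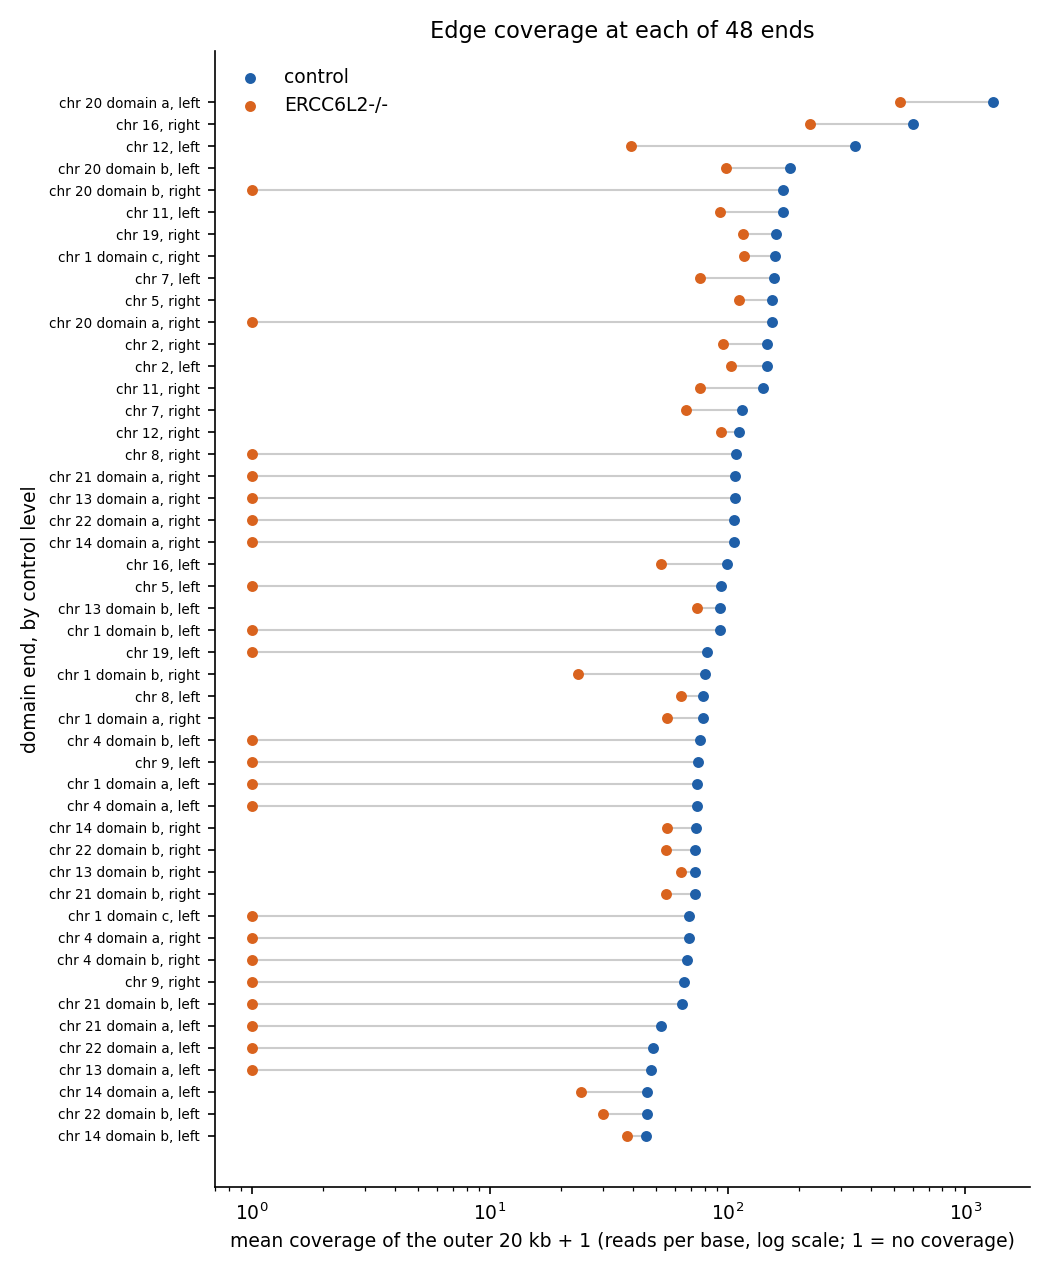
Mean coverage of the outer 20 kb plus 1, in reads per base on a log axis, of control and ERCC6L2-/- at each of the 48 ends, ordered by control level. Points at 1 on the x axis have no ERCC6L2-/- coverage, which is so at 22 ends. Control levels range from 44.5 to 1300 reads, and ERCC6L2-/- reaches 529 reads at most.

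The 4 chromosomes 11, 7, 2 and 12 had the longest continuous ERCC6L2-/- coverage, and it reached to within 2 kb of each end except the left end on chromosome 12. On chromosome 11 the left edge had 170 reads in control and 91.8 in ERCC6L2-/-, and the right edge 140 and 75.5 reads. ERCC6L2-/- coverage began 374 and 1785 bases from these ends. On chromosome 7 the left edge had 156 and 75.7 reads and the right edge 114 and 65.9 reads, with coverage starting 3 and 0 bases from the ends. On chromosome 2 the edges had 145 and 102.7 reads on the left and 146 and 94.4 on the right. The edges of these 3 chromosomes thus differed in level and hardly in extent.

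Many ends shared their sequence with another end. Ends that had at least 50% of their 50-base words in common, in both directions, were put into families. The 48 ends fell into 30 families, 8 of which had more than 1 end and held 26 ends together. Reads from ends of a family cannot be told apart where their words are the same, so these ends are not separate measurements. With each family counted once, the log2 ratio of means was −1.39.

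Of the 3 families with 4 ends, 2 lay on the acrocentric chromosomes 13, 14, 21 and 22, whose centromeres have closely related arrays. The right ends of domain a on these had 107, 106, 107 and 106 reads in control and no ERCC6L2-/- coverage on any. The right ends of domain b had 71.8, 72.5, 71.7 and 71.8 reads in control and 62.7, 54.6, 54.4 and 54.2 in ERCC6L2-/-. Control values were thus nearly the same within each family. In ERCC6L2-/- the ends of the second family differed in extent, with 96.6% of the edge covered on chromosome 13 and 75.1, 72.1 and 72.2% on the others, although they shared 100% of their 50-base words. In the first kilobase ERCC6L2-/- had 97.7 reads on chromosome 13 and no coverage on the other 3, where control had 101, 98.1 and 94.3 reads. Over shared bases the log2 ratio of the second family lay between −0.23 and −0.20.

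Other families were split. Among the left ends of domain b on chromosomes 14, 21 and 22, control had 44.5, 63.6 and 44.9 reads, and ERCC6L2-/- had 36.7, 0 and 28.9 reads. Among the left ends of domain a on chromosomes 13, 14 and 22, control had 46.8, 45.0 and 47.6 reads, and ERCC6L2-/- had coverage on chromosome 14 alone, with 23.2 reads. Of 3 related ends on chromosome 20, with 152, 181 and 171 reads in control, the left end of domain b alone had ERCC6L2-/- coverage, with 97.8 reads. In all, 17 families had coverage at every end, 10 at none and 3 at some.

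On chromosomes 1, 5 and 19, which share related arrays, the 2 sides differed. The right ends (domain c on chromosome 1) had 158, 153 and 159 reads in control and 116, 111 and 115 in ERCC6L2-/-. The related left ends of domain b on chromosome 1 and of chromosome 5 had 91.7 and 92.9 reads in control and no ERCC6L2-/- coverage. The 4 ends on chromosome 4 formed a family as well, with 66.8 to 75.7 reads in control and none in ERCC6L2-/-. Shared sequence was also common across chromosomes: at edges with ERCC6L2-/- coverage a median of 68.6% of the 50-base words occurred on another chromosome (2.30 to 100%), and at edges without it 100% (4.55 to 100%).

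Within the edges, the boxes followed the windows. Of 2345 edge boxes, 2336 were covered in control and 1053 (44.9%) in ERCC6L2-/-. Windows with 2 boxes had ERCC6L2-/- coverage in 196 of 404 cases (48.5%), windows with 3 boxes in 201 of 463 (43.4%) and windows with 1 box in 47 of 77 (61.0%). Few windows had other numbers, with coverage in 1 of 6 windows without a box and in 5 of 10 with 4 boxes. None of the 48 edges overlapped a gene of GENCODE release 44.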

How the data were processed

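The data were CENP-B ChIP-seq maps of control and ERCC6L2-/- U2OS cells, with chromatin digested by micrococcal nuclease and briefly sonicated. Per the labels, the authors used FastQC, Trim Galore, Bowtie2 and MACS2 with GRCh38. Peaks of 3 replicates were merged with MSPC after an FDR filter. The authors deposited 1 pooled coverage signal per base and group within the merged peaks, as whole numbers of reads. Software versions, handling of duplicate and multi-mapping reads and depth scaling are not given in the sources used here. Bases that lie outside the regions of a group were read as 0, since no value is listed for them. The 2 inputs were left out.

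The listed intervals were expanded in numpy 2.4.6, summarised in pandas 2.3.3 under Python 3.11.15, and plotted with matplotlib 3.10.9. Window values are means over all bases of a window. Domain building and window calls were tested on simulated data. Sequence and genes came from GRCh38 and GENCODE release 44. Ends named with their own values were the 3 lowest and 3 highest ratios of (mean + 1) and the first 6 without ERCC6L2-/- coverage. So were the 3 ends with the lowest control in the outer 5 kb relative to the middle and the 3 with the highest. Other ends were named after their values were seen. The members, lists and alternatives were chosen with earlier results of these data known.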

Additional observations from a re-analysis of the deposited data

Results flagged for a closer look

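ERCC6L2-/- coverage of at least 1 kb was found in the 20 kb outside 2 control ends, where control had none. At 2 other such ends, the right end of domain c on chromosome 1 and the right end on chromosome 12, it was 34 bases and 1 base. Outside the right end of domain b on chromosome 1, which ends at position 123546005, 19107 bases of the neighbouring 20 kb were covered in ERCC6L2-/-. Outside the left end of domain c, which begins at position 123593645, it was 2059 bases. Both lie in the same stretch of 47639 bases between the domains, which holds 114 CENP-B boxes and no undetermined base. In it ERCC6L2-/- covered 28736 bases within chr1:123546679-123575791, with a mean of 74.3 reads and up to 1559 reads at a base. On the control side of the first of these ends, ERCC6L2-/- coverage began only 12858 bases inward. Of the 7 other stretches between neighbouring domains of a chromosome, 1 had ERCC6L2-/- coverage, 19448 bases between the domains of chromosome 13. The cause was not tested.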

How the results depend on the processing

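No paired analysis was possible because the maps hold 1 pooled value per group, and for the same reason no replicate could be left out. Joining over no gap at all left no domain of 500 kb, so that setting gave no value. Log2 ratios of ERCC6L2-/- to control, first for the edges and then for the middles, were −0.36 and −0.30 after scaling to total coverage and −0.82 and −0.48 over bases covered in both groups. In the same order they were −1.43 and −1.39 with gaps of 5 kb joined, −1.49 and −1.29 with domains built from bases of at least 10 reads, and −1.59 and −1.55 with domains from 200 kb. They were −1.22 and −0.84 with domains from 1 Mb, −1.42 and −1.44 with domains of bases covered in either group, −1.82 and −3.06 for medians, and −1.63 and −1.69 at ends away from assembly gaps. With the outer 5 kb as the edge the edge ratio was −1.68, and with values capped at 769 reads it was −1.34. With the middle taken as everything beyond 20 kb its ratio was −1.13, and 27 ends were lower at the edge.

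Log2 ratios of edge to middle, in control and then in ERCC6L2-/-, also depended on the setting. They were 0.62 and 0.58 with gaps of 5 kb, 0.59 and 0.40 with 10 reads, 0.52 and 0.48 from 200 kb, 0.48 and 0.10 from 1 Mb, 1.18 and 0.90 for the outer 5 kb, and 0.21 and 0.27 with the cap. They were 0.58 and 0.60 for either group, 0.55 and 0.22 for the wider middle, 0.26 and 1.51 for medians, and 0.87 and 0.93 away from assembly gaps. The 1.51 rests on an ERCC6L2-/- median over 24 middles of which 12 had no coverage. With 12 ends of domains built on ERCC6L2-/- coverage itself, the ratio to control was −0.63 at edges and −0.47 at middles, and edge to middle was 0.0096 in control and −0.15 in ERCC6L2-/-, the latter reversed. There 10 ends were lower at the edge than at the middle and 0 lacked ERCC6L2-/- coverage, which is how they were built.

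The counts of ends lower at the edge and of ends without ERCC6L2-/- coverage were 11 and 6 of 20 from 1 Mb, and 11 and 13 of 23 away from assembly gaps, with fewer ends in each. Settings chosen after seeing the data gave, without the 3 ends highest in control, an edge ratio of −1.43 and edge to middle of 0.11 and 0.071, and over shared bases −0.55. Over shared bases with scaling to total coverage, which counts listed bases only, the ratios reversed, to 0.28 at edges and 0.62 at middles. With 1 mean per sequence family they gave −1.39, 0.87 and 0.88. Without chromosomes 13, 14, 21 and 22 the ratios were −1.44 at edges and −1.24 at middles, edge to middle was 0.67 and 0.47, and 14 of 32 ends lacked ERCC6L2-/- coverage. The cause of these shifts was not tested. Pooled values, unknown depth and reads that fit several repeats limit every ratio.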
